A study of Rattus norvegicus with 12 samples.

Results

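The sarcoplasmic reticulum is the calcium store of the heart muscle cell, and 10 genes that fill it, hold its calcium and release it were followed here through left atrium libraries of normotensive and hypertensive rats. The genes were chosen by name, as rows of the deposited gene table found by symbol, and all 10 were present among the 21239 genes with counts. They are Atp2a2 (NCBI gene 29693), Pln (64672), Sln (367086), Ryr2 (689560), Casq2 (29209), Trdn (59299), Asph (312981), Hrc (292905), Jph2 (296345) and Slc8a1 (29715). Their levels are given as CPM, which is the gene's expected count after each library was scaled to a total of 1000000. CPM is not corrected for transcript length, so levels were compared between libraries and not between genes.

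In each heartbeat, calcium that enters through the cell membrane opens the ryanodine receptor, calcium leaves the store, and the cell contracts. The muscle relaxes when the pump SERCA2a, made from Atp2a2, returns calcium to the store and the exchanger NCX1, made from Slc8a1, carries calcium out of the cell. Phospholamban and sarcolipin are small membrane proteins that slow the pump. In rodents phospholamban is known mainly from the ventricle, and sarcolipin from the atrium and from skeletal muscle.

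RNA-seq was performed on the left atrium of 12 male rats, with 3 libraries in each of 4 groups. Purchase was at an age of 14 weeks, and treatment lasted 4 weeks. The WKY group (normotensive Wistar-Kyoto rats) and the SHR group (spontaneously hypertensive rats, an inbred line with inherited high blood pressure) received saline at 7.5 ml/kg/day. The ARB group (SHRs) received valsartan, an angiotensin receptor blocker, at 30 mg/kg/day, and the ARNI group (SHRs) received sacubitril/valsartan, which also inhibits neprilysin, at 60 mg/kg/day. Strain and blood pressure cannot be told apart in this design.

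The libraries held totals of 11252361 to 15823525 expected counts. In 6 libraries, those named WKY and SHR, the strain given in words contradicts the library name, and the name was used for grouping. If the strain words were right, every SHR to WKY difference below would have the opposite sign. The libraries named WKY would then be the saline SHR control of the drug comparisons. Those of ARB and ARNI with the libraries named SHR would set treated SHRs against normotensive rats. The ARB and ARNI libraries carry an SHR phenotype beside a WKY strain entry and were taken as SHRs, as the study's methods describe them; they are set against both saline groups. A pair of genes was picked from these files because it separates the libraries named WKY from the others, so it is no independent check of the names. Ndufa10l1 was at 0 CPM in the 3 WKY libraries and at 54.0 to 119 CPM in the other 9, whereas Mettl24 was at 3.02 to 3.58 CPM in the WKY libraries and had 1 read in all of the other 9.

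The left atrium label was checked against the markers of both heart chambers before the calcium genes were compared. For Myl7, which encodes an atrial myosin light chain, WKY libraries held 15.9, 3.30 and 0.889 CPM and the library ARNI 2 held 9.67 CPM, against 4478 to 11547 CPM in the other 8. For Nppa, which encodes atrial natriuretic peptide, they held 32.5, 129 and 276 CPM, and ARNI 2 held 40.8 CPM, against 17946 to 53632 CPM in the other 8. Mybphl, an atrial thick filament protein, had 1, 0 and 1 reads in the WKY libraries.

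The ventricular light chains had the opposite distribution. Myl2 reached 3737, 3776 and 3489 CPM in WKY and 4161 CPM in ARNI 2. SHR 2 (2298 CPM) and ARB 3 (2573 CPM) held Myl2 beside their atrial markers, and the other 6 libraries held 0.135 to 24.2 CPM. Myl3 was at 7005 to 7632 CPM in the WKY libraries and at 8440 CPM in ARNI 2. Myh7, the slow myosin heavy chain of the ventricle, set WKY apart from ARNI 2: it was at 32130 to 32744 CPM in WKY, at 5907 CPM in ARNI 2, at 3319 CPM in SHR 2, at 2802 CPM in ARB 3 and at 357 to 763 CPM in the other 6. The listed ventricular genes summed to 43273 to 43595 CPM in WKY, 18563 CPM in ARNI 2, 9833 CPM in SHR 2, 10625 CPM in ARB 3 and 371 to 935 CPM in the other 6. All 10 atrial genes listed together came to 423 to 613 CPM in the WKY libraries, to 352 CPM in ARNI 2 and to 27953 to 77340 CPM in the other 8. Of these 10, 7 or 8 were at 1 CPM or more in each WKY library. Among them Gja5 was at 14.4 to 15.5 CPM in WKY and 7.79 to 23.7 CPM in SHR, Dkk3 at 238 to 271 and 507 to 981 CPM, Kcnj3 at 41.3 to 52.9 and 134 to 291 CPM, and Nr2f2 at 19.0 to 20.2 and 42.0 to 115 CPM. Of the rest of the list, Myl4 was at 2.49 to 6.87 CPM in WKY and 4032 to 9330 CPM in SHR, and Stard10 at 17.0 to 19.1 and 221 to 582 CPM. Bmp10 had 0, 0 and 1 reads in WKY and was at 1.02 to 933 CPM in SHR. The WKY libraries thus held Myl7, Myl4, Nppa, Mybphl, Bmp10 and Stard10 far below most SHR values. They held the other listed atrial genes at lower or overlapping levels. The WKY to SHR difference and a difference in the chamber sampled cannot be told apart for any gene below. In bulk tissue, fewer cells of a type and less RNA per cell cannot be told apart either. Comparisons are also given without SHR 2, ARB 3 or ARNI 2. Those fits do not remove the chamber difference. They set only libraries with Myl2 at 0.135 to 24.2 CPM against the WKY libraries, so strain and chamber markers are then fully confounded. Calls gained in them cannot be assigned to strain, blood pressure or treatment.

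Markers of other cell types also differed between libraries. Mesothelial markers summed to 51.8 to 67.5 CPM in WKY and to 166 to 365 CPM in SHR. Adipocyte markers summed to 361 CPM in ARB 2 and 391 CPM in ARNI 3, against at most 15.3 CPM in the other 10. Fibroblast markers reached 4843 CPM in SHR 3, against 1260 to 3252 CPM in the other 11, and smooth muscle markers 706 CPM in ARNI 3, against 112 to 289 CPM. Their part in the results was not tested.

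Promoter sequences were taken for the members from RefSeq (build GRCr8; 250 bases before and 50 after the annotated start), and 8 of the 10 genes matched; Sln and Asph did not. Those of Pln, Jph2 and Casq2 are shown because Pln varied most between libraries among the 8, Jph2 was called lower than in WKY, and Casq2 varied least. Capitals mark E-boxes (CANNTG, the site of basic helix-loop-helix factors) and a MEF2 site, read on both strands.

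Pln, chr20:33172244-33172543, plus strand: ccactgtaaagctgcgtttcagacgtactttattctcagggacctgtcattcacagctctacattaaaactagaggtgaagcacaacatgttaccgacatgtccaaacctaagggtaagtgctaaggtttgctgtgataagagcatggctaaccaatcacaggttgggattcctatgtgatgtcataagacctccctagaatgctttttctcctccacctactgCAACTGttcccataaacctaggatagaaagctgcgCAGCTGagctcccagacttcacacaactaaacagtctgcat
Jph2, chr3:172477872-172478171, minus strand: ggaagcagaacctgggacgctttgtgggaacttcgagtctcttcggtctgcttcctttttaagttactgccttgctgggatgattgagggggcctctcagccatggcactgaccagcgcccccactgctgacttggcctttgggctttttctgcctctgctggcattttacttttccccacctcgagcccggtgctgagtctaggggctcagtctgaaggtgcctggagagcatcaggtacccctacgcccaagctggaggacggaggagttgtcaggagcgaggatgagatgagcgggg
Casq2, chr2:192214306-192214605, plus strand: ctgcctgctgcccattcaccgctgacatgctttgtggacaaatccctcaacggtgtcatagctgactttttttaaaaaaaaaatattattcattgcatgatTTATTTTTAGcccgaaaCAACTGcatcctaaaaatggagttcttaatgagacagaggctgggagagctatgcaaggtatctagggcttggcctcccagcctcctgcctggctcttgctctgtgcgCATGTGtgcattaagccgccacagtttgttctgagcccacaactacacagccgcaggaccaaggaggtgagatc

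The Pln window held 2 E-boxes, the first at base -26 and the other at base 10 counted from the start, and Casq2 held 2 E-boxes and 1 MEF2 site, none of which overlapped. Jph2 held no match. Of 33469 promoters of the same length, 72.1% held an E-box and 3.29% a MEF2 site. No match to TATAAA (in 14.2% of promoters), CATTCC (14.2%), AGGTGT (13.6%) or a CArG box (1.64%) was found in any of the 8 windows, and AGGTCA (16.2%) was found in the Ryr2 window only. GC content was 45% for Pln, 58% for Jph2, 47.7% for Casq2 and 79% for Atp2a2, beside a median of 51.7% over all promoters. These matches describe the letters of the window only.

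Sln, which encodes sarcolipin, was the member that differed most. The WKY libraries held 5, 3 and 5 counts (0.426, 0.261 and 0.444 CPM). The SHR libraries were at 1736, 668 and 1137 CPM, the ARB libraries at 1487, 1346 and 886 CPM, and the ARNI libraries at 1396, 1.57 and 1030 CPM. All 6 SHR and ARB libraries and 2 of the ARNI libraries lay far above the WKY range. The remaining ARNI library, ARNI 2, had 20 counts and was nearer to WKY than to its own group.

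The 13 Sln counts of the WKY libraries together correspond to 0.377 CPM (95% exact Poisson interval 0.201 to 0.645, counting error only). Sln was significantly upregulated in SHR against WKY, with a log2 fold change of 11.43 (SE 0.54, n = 3 per group). The adjusted p was 0.00114 (quasi-likelihood test of edgeR, Benjamini-Hochberg adjustment over all genes). In the ARB group it was also upregulated, with a log2 fold change of 11.55 (SE 0.34, adjusted p = 5.03e-05, edgeR). Both calls held under all 13 alternatives run in each comparison.

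In the ARNI group the Sln log2 fold change against WKY was 10.92 (SE 2.47) and did not pass (adjusted p = 0.147, edgeR), with a range of 10.25 to 11.50 over 13 alternatives. Without ARNI 2 it was 11.50 (SE 0.26, adjusted p = 0.000169, edgeR). With ARNI 2 kept, Sln was called by DESeq2 (10.95, adjusted p = 6.08e-08) and by edgeR with all 12 libraries in 1 fit (10.92, adjusted p = 0.0266).

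Sln was read against Myl7 in each library because both are known from atrial muscle. The Sln to Myl7 count ratio was 0.163, 0.149 and 0.124 in the SHR libraries, 0.129, 0.151 and 0.172 in the ARB libraries and 0.162, 0.163 and 0.136 in the ARNI libraries. Across these 9 libraries the ratio spanned a factor of 1.39 while Sln itself spanned a factor of 1104. The latter rests on ARNI 2: over the other 8 libraries Sln spanned a factor of 2.60. The ratio of ARNI 2 lay within the range of the other 8. The WKY ratios of 0.0269, 0.0789 and 0.5 rest on 3 to 5 Sln counts each. The 8 listed markers of skeletal muscle, the other tissue known for sarcolipin, summed to 3.31 to 5.51 CPM in WKY, 2.41 to 5.16 CPM in SHR, 3.23 to 6.01 CPM in ARB and 2.53 to 8.47 CPM in ARNI. Mylpf, on that list, was at 0.0889 to 0.348 CPM in WKY and 0.473 to 0.948 CPM in SHR, and Atp2a1, another skeletal muscle gene, is given with the wider list. Their part in the Sln difference was not tested.

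**Figure D1:**
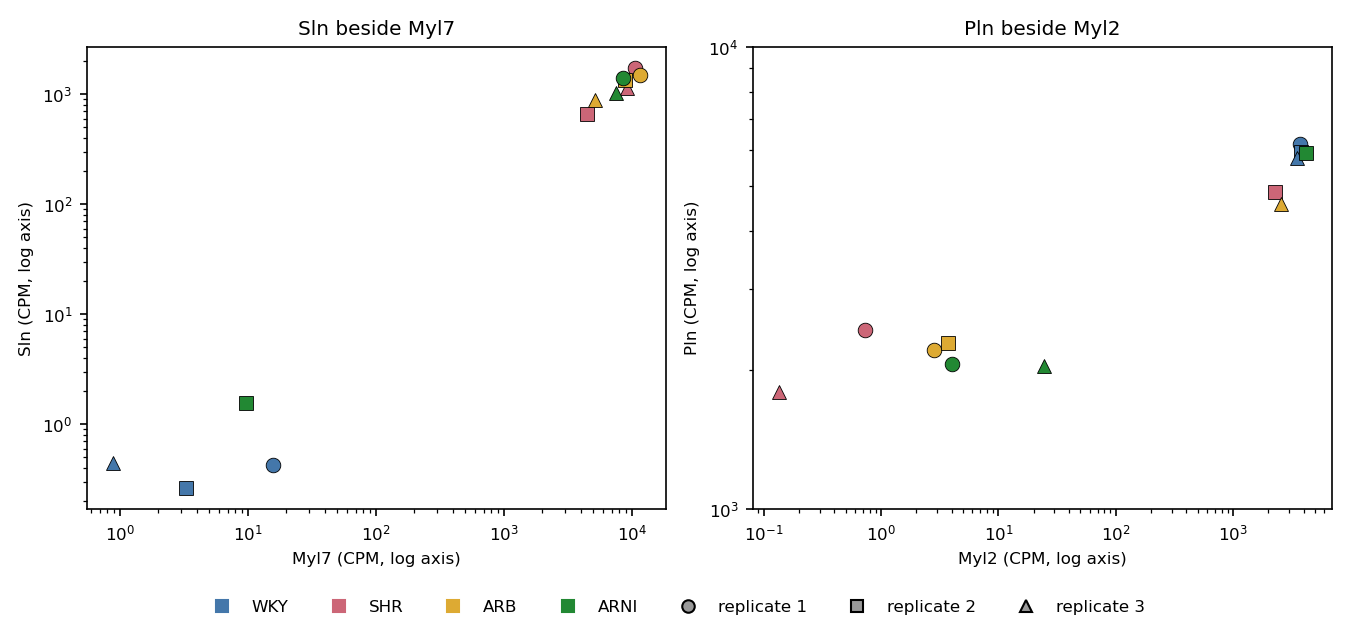
Sln against the atrial light chain Myl7 (left) and Pln against the ventricular light chain Myl2 (right), both axes in CPM on log scales, with 1 point for each of the 12 libraries. The 3 WKY libraries and ARNI 2 sit together at low Myl7 and low Sln, and the 6 libraries with Myl2 of 2298 CPM or more have Pln of 4583 CPM or more.

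The 5 genes whose profiles were nearest to that of Sln were Mybphl, Myl4, Atp1b4, Rab15 and Myl7, among 14452 genes in 12 libraries. Their root mean square difference from Sln, on mean-centred log2 CPM, was 0.44 for Mybphl, 0.56 for Myl4, 0.59 for Atp1b4, 0.81 for Rab15 and 0.86 for Myl7, beside 5.15 for the size of the Sln profile itself. Mybphl, Myl4 and Myl7 were on the atrial marker list.

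Pln, which encodes phospholamban, was high in WKY and split within each of the other groups. The WKY libraries were at 6164, 5916 and 5743 CPM. The SHR libraries were at 2440, 4846 and 1796 CPM, the ARB libraries at 2209, 2288 and 4583 CPM, and the ARNI libraries at 2061, 5885 and 2044 CPM. One library in each SHR-strain group, namely SHR 2, ARB 3 and ARNI 2, was at or close to the WKY level.

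Those are the libraries with ventricular light chains. Pln was at 4583 to 6164 CPM in the 6 libraries with Myl2 of 2298 CPM or more, and at 1796 to 2440 CPM in the other 6, with no overlap. Sln (0.261 to 886 against 1030 to 1736 CPM) and Slc8a1 (275 to 378 against 390 to 553 CPM) also split these libraries without overlap. The ranges of the remaining members overlapped. The share of all genes that split this way was not computed. Pln differed from WKY by -1.08 in the SHR group (log2, SE 0.41, adjusted p = 0.1002, edgeR), by -1.04 in the ARB group (SE 0.34, adjusted p = 0.0581) and by -0.84 in the ARNI group (SE 0.51, adjusted p = 0.396), and none of these passed. Without SHR 2 the difference was -1.65 (SE 0.18, adjusted p = 0.000953, edgeR). Without ARB 3 it was -1.54 (SE 0.07, adjusted p = 1.6e-05, edgeR), and without ARNI 2 it was -1.65 (SE 0.10, adjusted p = 0.000920, edgeR). DESeq2 called Pln lower with all libraries kept in the SHR group (adjusted p = 0.0146) and the ARB group (adjusted p = 0.00403).

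The genes nearest in profile to Pln were Lrrc39, Ldhb, Cmbl, Smap2 and Fbxo31. Their root mean square differences were 0.11, 0.12, 0.13, 0.13 and 0.14 in log2 CPM, beside 0.70 for the size of the Pln profile. Lrrc39 encodes a sarcomeric protein, and Ldhb encodes the heart form of lactate dehydrogenase.

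Atp2a2, the pump itself, varied little between libraries. It was at 12666, 12767 and 12289 CPM in WKY, at 11429, 12617 and 10877 CPM in SHR, at 11299, 11787 and 10002 CPM in ARB and at 12256, 13864 and 12923 CPM in ARNI. The ARB libraries all lay below the WKY range, and the SHR and ARNI ranges overlapped it. The highest library was 1.39 times the lowest, and 5.72% of 13542 genes with a mean of at least 1 CPM varied less on the log2 scale. The log2 difference from WKY was -0.24 in SHR (SE 0.23, adjusted p = 0.457), -0.28 in ARB (SE 0.17, adjusted p = 0.262) and 0.01 in ARNI (SE 0.26, adjusted p = 0.993) by edgeR. Atp2a2 was called lower when SHR 2 was left out (-0.34, adjusted p = 0.0414) and when ARB 3 was left out (-0.26, adjusted p = 0.0170), and by DESeq2 in ARB with all libraries kept (-0.29, adjusted p = 0.00403).

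**Figure D2:**
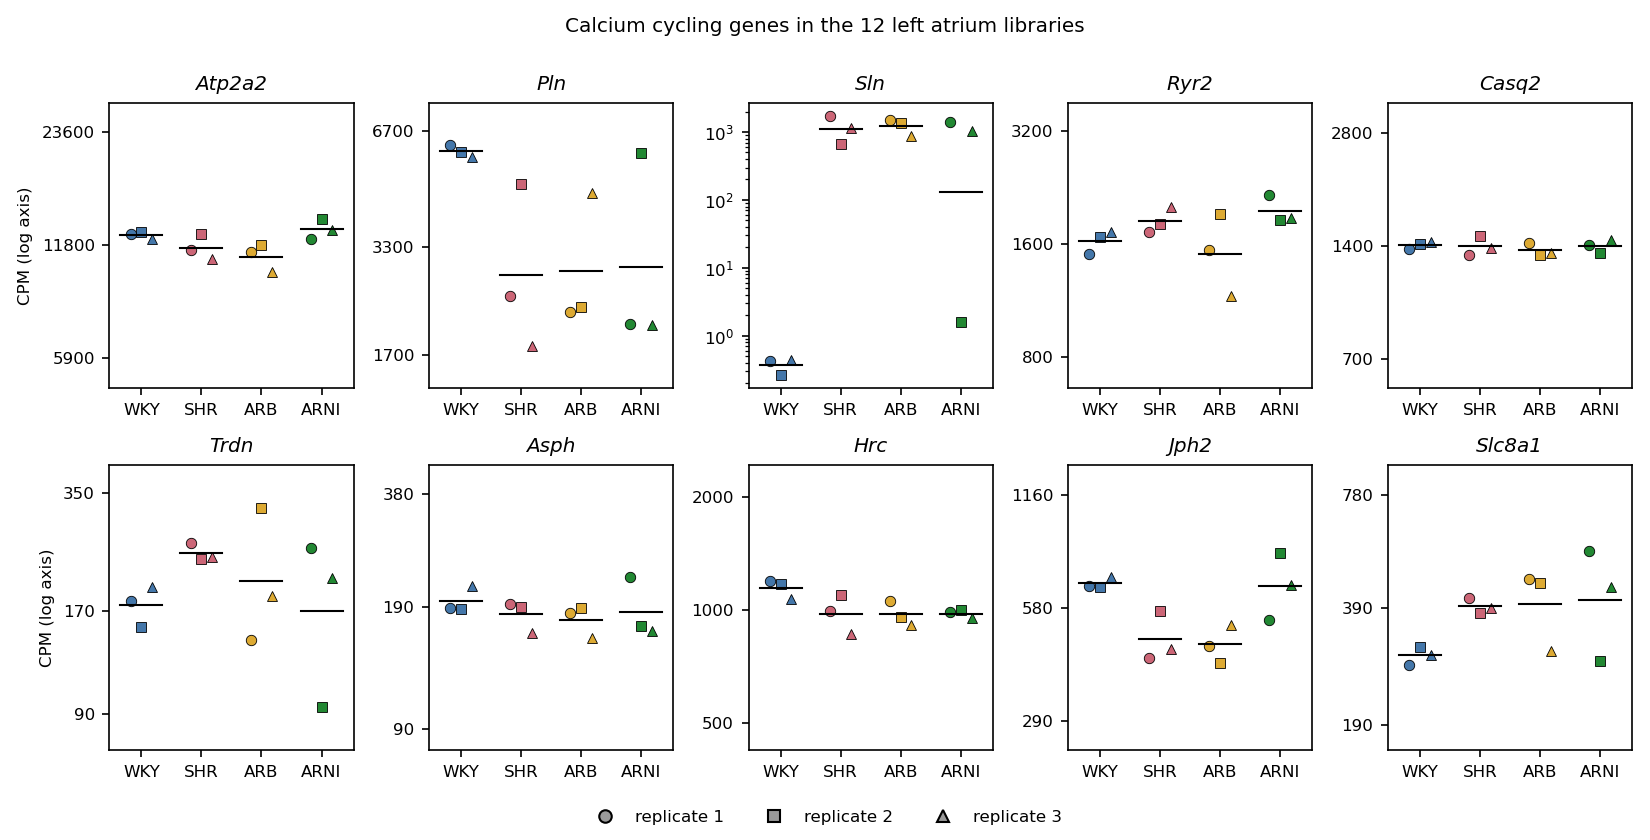
CPM of the 10 calcium cycling genes in each of the 12 libraries (log axis, 1 panel per gene, 3 points per group marked by replicate), with a bar at the geometric mean of the group. Sln spans from 0.261 to 1736 CPM and Pln from 1796 to 6164 CPM, whereas the Casq2 libraries lie within a factor of 1.13 and those of Atp2a2 within 1.39.

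The balance of the inhibitors was read from the Sln to Pln count ratio in each library. It was 6.92e-05, 4.41e-05 and 7.74e-05 in WKY, 0.711, 0.138 and 0.633 in SHR, 0.673, 0.588 and 0.193 in ARB and 0.677, 0.000267 and 0.504 in ARNI. All 9 SHR-strain libraries exceeded all 3 WKY libraries, ARNI 2 by the least. Within each group the library with ventricular markers had the lowest ratio.

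On the log2 scale (1 count added to each gene) the ratio was -13.67 ± 0.34 in WKY (mean ± SD, n = 3), -1.34 ± 1.32 in SHR, -1.24 ± 0.99 in ARB and -4.45 ± 6.37 in ARNI. The difference from WKY was 12.33 for SHR, 12.43 for ARB and 9.22 for ARNI, each with p = 0.1 in a two-sided exact permutation test and an adjusted p of 0.2 over 6 comparisons. With 3 libraries against 3, 0.1 is the smallest p this test can give. The difference was 0.10 between ARB and SHR (exact permutation p = 0.9), -3.11 between ARNI and SHR (exact p = 0.6) and -3.21 between ARNI and ARB (exact p = 0.7). Without ARNI 2 those last differences were 0.56 and 0.46, and the ARNI to WKY difference was 12.89.

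Against the pump, the Pln to Atp2a2 ratio was 0.487, 0.463 and 0.467 in WKY. It was 0.214, 0.384 and 0.165 in SHR, 0.196, 0.194 and 0.458 in ARB and 0.168, 0.425 and 0.158 in ARNI. All 9 were below the WKY range, and the highest of each group came from the library with ventricular markers. The Sln to Atp2a2 ratio reached 0.152 in SHR 1 and was 0.000113 in ARNI 2.

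**Figure D3:**
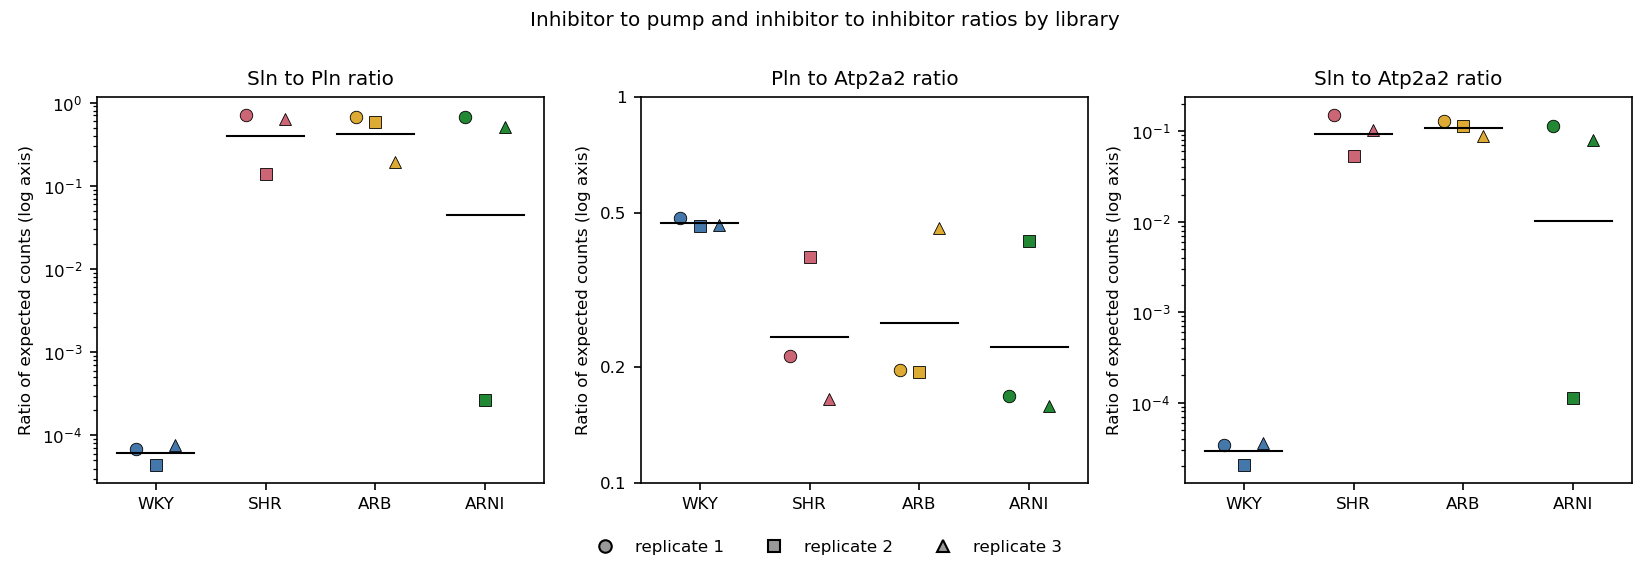
Ratios of expected counts by library on log axes: Sln to Pln (left), Pln to Atp2a2 (middle) and Sln to Atp2a2 (right), with 3 libraries per group and a bar at the geometric mean. The Sln to Pln ratio lies at 4.41e-05 to 7.74e-05 in WKY and at 0.138 to 0.711 in the SHR and ARB libraries, with ARNI 2 apart at 0.000267.

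The release channel and the proteins that hold calcium beside it differed less. Ryr2, the ryanodine receptor, was at 1501, 1662 and 1716 CPM in WKY, at 1716, 1805 and 1998 CPM in SHR, at 1534, 1918 and 1158 CPM in ARB and at 2157, 1848 and 1867 CPM in ARNI. The ARNI libraries lay above the WKY range and the SHR and ARB ranges overlapped it. No Ryr2 difference from WKY passed, with log2 values of 0.04 in SHR, -0.19 in ARB and 0.22 in ARNI (adjusted p = 0.858, 0.471 and 0.488, edgeR).

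Casq2, the calcium-binding protein inside the store, was the most even member. It was at 1379, 1420 and 1441 CPM in WKY, at 1326, 1494 and 1389 CPM in SHR, at 1434, 1328 and 1346 CPM in ARB and at 1409, 1341 and 1458 CPM in ARNI. The group ranges overlapped, and only 0.0886% of the 13542 genes had a smaller SD of log2 CPM (0.06 for Casq2) over the 12 libraries. Its log2 differences from WKY were -0.14, -0.13 and -0.06 in SHR, ARB and ARNI. The standard error of each was 0.14, so that differences of that size could not be detected. Ratios of mean CPM to WKY, which leave out the further scaling used by edgeR, were nearer to even, at 0.993, 0.969 and 0.992.

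Trdn, which encodes triadin and ties calsequestrin to the channel, was at 180, 154 and 196 CPM in WKY and at 258, 233 and 236 CPM in SHR. The 3 SHR libraries lay above the 3 WKY libraries. The ARB libraries were at 142, 319 and 186 CPM and the ARNI libraries at 250, 94.0 and 208 CPM, which spread to both sides of WKY. The SHR to WKY log2 difference was 0.32 (SE 0.13, adjusted p = 0.117, edgeR) and passed only when libraries were scaled by their totals alone (0.46, adjusted p = 0.0351).

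Asph, whose locus makes junctin among other products, was at 189, 188 and 217 CPM in WKY and at 157 to 228 CPM in the other 9 libraries. Gene-level counts do not separate junctin from the enzyme made by the same gene. Hrc, the histidine-rich protein of the store, was at 1197, 1171 and 1072 CPM in WKY, at 993, 1097 and 862 CPM in SHR, at 1056, 962 and 916 CPM in ARB and at 986, 999 and 952 CPM in ARNI. The ARB and ARNI libraries lay below the WKY range, and SHR 2 alone among the SHR libraries reached into it.

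Hrc differed from WKY by -0.35 in SHR (log2, SE 0.17, adjusted p = 0.168), by -0.32 in ARB (SE 0.14, adjusted p = 0.119) and by -0.27 in ARNI (SE 0.15, adjusted p = 0.348) by edgeR. It passed as lower without SHR 2 (-0.47, adjusted p = 0.0266), without ARB 3 (-0.32, adjusted p = 0.0309) and without ARNI 2 (-0.36, adjusted p = 0.0359), and by DESeq2 in ARB with all libraries kept (-0.33, adjusted p = 0.0225). Asph passed in no comparison and under no alternative.

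Jph2, junctophilin-2, anchors the store to the cell membrane. It was at 665, 660 and 701 CPM in WKY, at 428, 568 and 451 CPM in SHR, at 461, 416 and 524 CPM in ARB and at 540, 814 and 669 CPM in ARNI. The SHR and ARB libraries all lay below WKY, and the ARNI libraries lay on both sides of it, with ARNI 2 highest.

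Jph2 was downregulated in SHR against WKY (log2 fold change -0.61, SE 0.17, adjusted p = 0.0455, edgeR) and in the ARB group (-0.61, SE 0.16, adjusted p = 0.0302, edgeR). The SHR call was lost in 8 of 13 alternatives, including when any WKY library, SHR 1 or SHR 3 was left out, with adjusted p-values from 0.00126 to 0.148. With the replicate block it was -0.63 (adjusted p = 0.0949). Without SHR 2 it was -0.79 (adjusted p = 0.00126). The ARB call was lost in 6 of 13 alternatives, when any WKY library, ARB 1 or ARB 2 was left out or all 12 libraries were fitted together, with adjusted p-values of 0.00103 to 0.103 over the 13. In the ARNI group the difference was -0.04 (SE 0.21, adjusted p = 0.927).

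Slc8a1, the sodium-calcium exchanger, was at 275, 307 and 292 CPM in WKY, at 415, 378 and 390 CPM in SHR, at 466, 452 and 298 CPM in ARB and at 553, 281 and 441 CPM in ARNI. The 3 SHR libraries lay above WKY, while ARB 3 and ARNI 2 lay within the WKY range. All 6 libraries with Myl2 of 2298 CPM or more, SHR 2 among them, lay below the other 6 (275 to 378 against 390 to 553 CPM). The log2 difference was 0.30 in SHR (SE 0.11, adjusted p = 0.0853), 0.38 in ARB (SE 0.17, adjusted p = 0.126) and 0.48 in ARNI (SE 0.22, adjusted p = 0.288) by edgeR, and none passed. Slc8a1 was called higher without ARB 3 (0.52, adjusted p = 0.00258) and without ARNI 2 (0.66, adjusted p = 0.0169), and in SHR when libraries were scaled by totals alone (0.44, adjusted p = 0.0246).

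In the SHR to WKY comparison, 1 of the 10 members was called higher, where 12.3% of 13794 genes tested were, and 1 was called lower, where 8.26% were. The median log2 difference of the members was -0.19, beside 0.01 over all genes. The CPM ranges of SHR and WKY did not overlap for 5 members (Sln, Trdn and Slc8a1 higher, Pln and Jph2 lower), beside 49.5% of all genes tested. The share of members was thus near the background of a comparison in which many genes differed. Without SHR 2, 5 members passed (Sln higher, and Pln, Jph2, Hrc and Atp2a2 lower), where 37.8% of all genes did in either direction.

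In the ARB to WKY comparison 1 member was called higher (background 15.7% of 13786 genes) and 1 lower (12.8%), again Sln and Jph2. Ranges did not overlap for 5 members (Sln higher, and Atp2a2, Pln, Hrc and Jph2 lower), beside 48.2% of genes. Without ARB 3, 6 members passed, beside 45.6% of all genes. In the ARNI to WKY comparison edgeR called none of the 10, beside 0.271% of 13656 genes. One member had an unadjusted p under 0.05 by edgeR and DESeq2 called 1, which was Sln. Ranges did not overlap for 3 members, beside 25.7% of genes, and without ARNI 2 there were 4 calls (Sln and Slc8a1 higher, Pln and Hrc lower), beside 28.4% of all genes. These 3 comparisons share the WKY libraries.

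**Figure D4:**
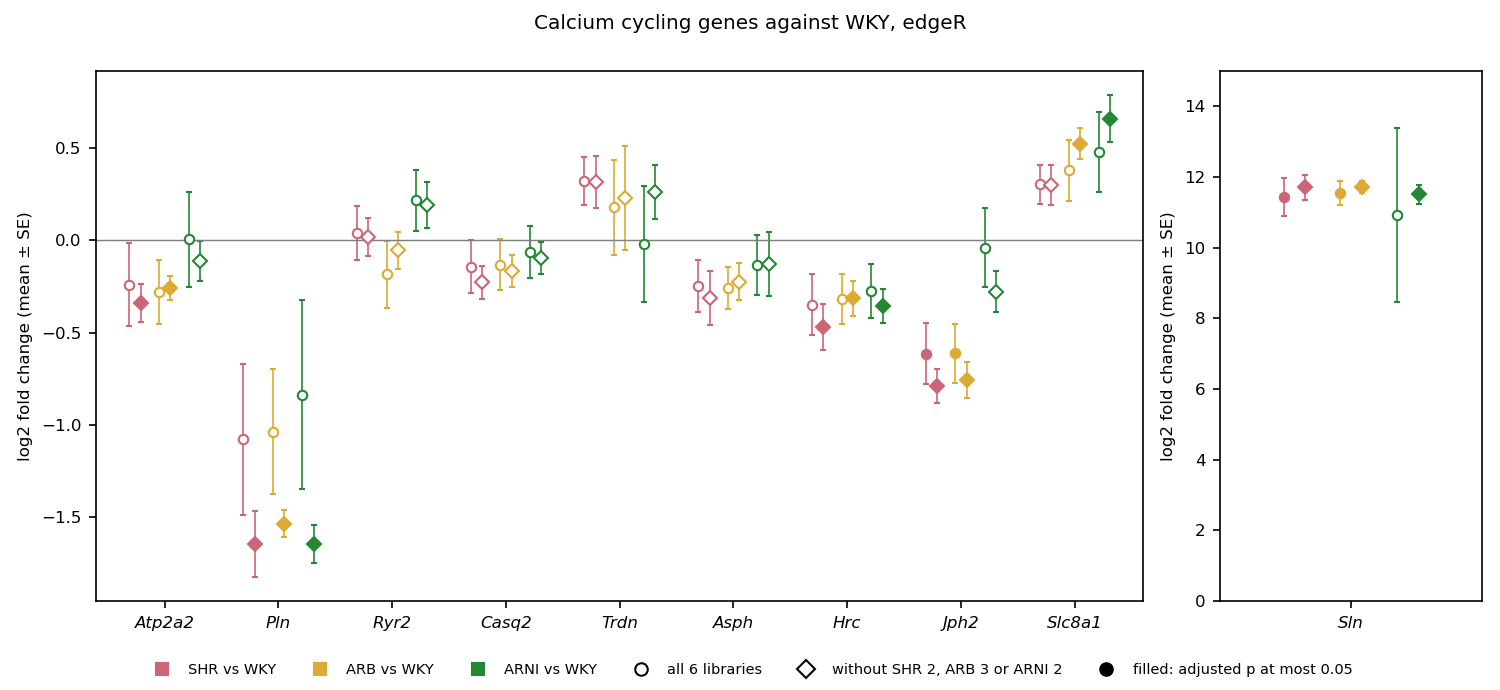
Log2 fold changes against WKY (edgeR estimate ± SE) for the SHR, ARB and ARNI groups, from all 6 libraries (circles) and without SHR 2, ARB 3 or ARNI 2 (diamonds), filled where the adjusted p was at most 0.05. Sln is on its own axis at 10.92 to 11.71, and Pln moves from between -1.08 and -0.84 to between -1.65 and -1.54 when those libraries are left out. The SE bars of Sln can understate the counting error of its WKY counts.

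Treated SHRs were compared with saline SHRs to ask whether either drug moved these genes. No member passed between ARB and SHR, ARNI and SHR or ARNI and ARB, where 0% of 13979, 0% of 13955 and 0% of 13948 genes passed by edgeR. No member had an unadjusted p under 0.05 in any of the 3, and DESeq2 called none of the 10. Sln differed by 0.10 between ARB and SHR (log2, SE 0.36), by -0.52 between ARNI and SHR (SE 1.56) and by -0.62 between ARNI and ARB (SE 1.52). Pln differed by 0.03 (SE 0.51), 0.25 (SE 0.65) and 0.23 (SE 0.61).

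Jph2 had the smallest p of the members in the ARNI comparisons. It differed by -0.02 between ARB and SHR (SE 0.22), by 0.57 between ARNI and SHR (SE 0.27, adjusted p = 0.999, edgeR) and by 0.60 between ARNI and ARB (SE 0.27, adjusted p = 0.993, edgeR). The 3 ARNI libraries lay above the 3 ARB libraries for Jph2 and for Atp2a2, beside 10.5% of all genes whose ranges did not overlap in either direction, and the ranges of the other 8 members overlapped. The standard errors of Sln and Pln were wider than the differences themselves, so differences of that size could not be detected with these libraries. The 3 comparisons reuse each other's libraries.

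A wider list of 87 genes of calcium handling, written by role, held 85 rows of the table, and 77 were tested between SHR and WKY. Of these, 10 were called higher and 6 lower, beside the 12.3% and 8.26% of all genes, and the median log2 difference was -0.04. The calcium channels of the cell membrane held the largest differences. Cacna1g, a T-type channel known from pacemaker and atrial cells, was at 12.1, 16.6 and 17.8 CPM in WKY and at 690, 330 and 506 CPM in SHR (log2 fold change 4.89, SE 0.32, adjusted p = 0.00149, edgeR). Cacna1d, the L-type channel of pacemaker and atrial cells, was at 1.80, 2.81 and 2.68 CPM in WKY and at 79.7, 30.7 and 40.0 CPM in SHR (4.24, SE 0.43, adjusted p = 0.00405). Cacna1h, another T-type channel, rose by 3.22 (SE 0.27, adjusted p = 0.00245, edgeR), whereas Cacna1c, the main L-type channel, was not called between SHR and WKY.

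In ARNI 2 these channels were at the WKY level, with Cacna1g at 16.9 CPM, Cacna1d at 2.36 CPM and Cacna1h at 13.2 CPM, and in the other ARNI libraries they were higher, with Cacna1g at 738 and 324 CPM. Atp2a1, the pump of fast skeletal muscle, rose by 3.06 (SE 0.39, adjusted p = 0.00672, edgeR) from a low level, 0.715 to 1.36 CPM in WKY and 5.44 to 12.8 CPM in SHR. Itpr1, an inositol trisphosphate receptor, rose by 1.41 (SE 0.29, adjusted p = 0.0220, edgeR). Ppp1r1a, an inhibitor of protein phosphatase 1, rose by 1.39, Sri (sorcin, a regulator of the ryanodine receptor) by 0.93 and Cmya5, a dyad protein, by 0.60, all past the threshold by edgeR.

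Of 9 listed genes of mitochondrial calcium uptake, 8 were tested, 4 were called lower and none higher, beside 8.26% of all genes called lower and 12.3% called higher. Mcu, the pore of the uniporter, was at 40.7, 41.7 and 41.0 CPM in WKY and at 32.0, 34.1 and 32.0 CPM in SHR, and fell by 0.46 on the log2 scale (SE 0.09, adjusted p = 0.0212, edgeR). Letm1 fell by 0.54 and Mcur1 by 0.52. Of 19 kinases, phosphatases and anchors, 1 was called higher and 2 lower, and of 15 tested genes of the ryanodine receptor complex, 2 were called higher, beside the same shares of all genes.

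The count of 16 calls in the wider list (beside 20.6% of all genes) was 34 without SHR 2 (37.8%), 5 without SHR 1 (6.86%), 4 to 5 when a WKY library was left out (2.93% to 3.51%), and 6 with the replicate block (7.47%). In the ARB to WKY comparison 15 of 77 were called higher and 15 lower, beside 15.7% and 12.8% of all genes, led by Cacna1g (5.03), Cacna1d (4.27), Cacna1h (3.26), Atp2a1 (2.85) and Trim72 (-1.93), the last a membrane repair protein. Of 6 cell membrane calcium channel genes, 3 were called higher and 2 lower, beside the same shares. The lower ones were Cacna1c (-0.64, adjusted p = 0.00868, edgeR) and Cacnb2 (-0.54, adjusted p = 0.0178, edgeR). The count of wider list calls for ARB against WKY was 47 without ARB 3 (45.6% of all genes), 14 without ARB 1 (16.3%) and 8 to 12 when a WKY library was left out (11.5% to 12.7%). In the ARNI to WKY comparison edgeR called 0 of 77, 19 had an unadjusted p under 0.05, and DESeq2 called 9 (6.65% of all genes). Without ARNI 2 edgeR called 33 (28.4%).

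**Figure D5:**
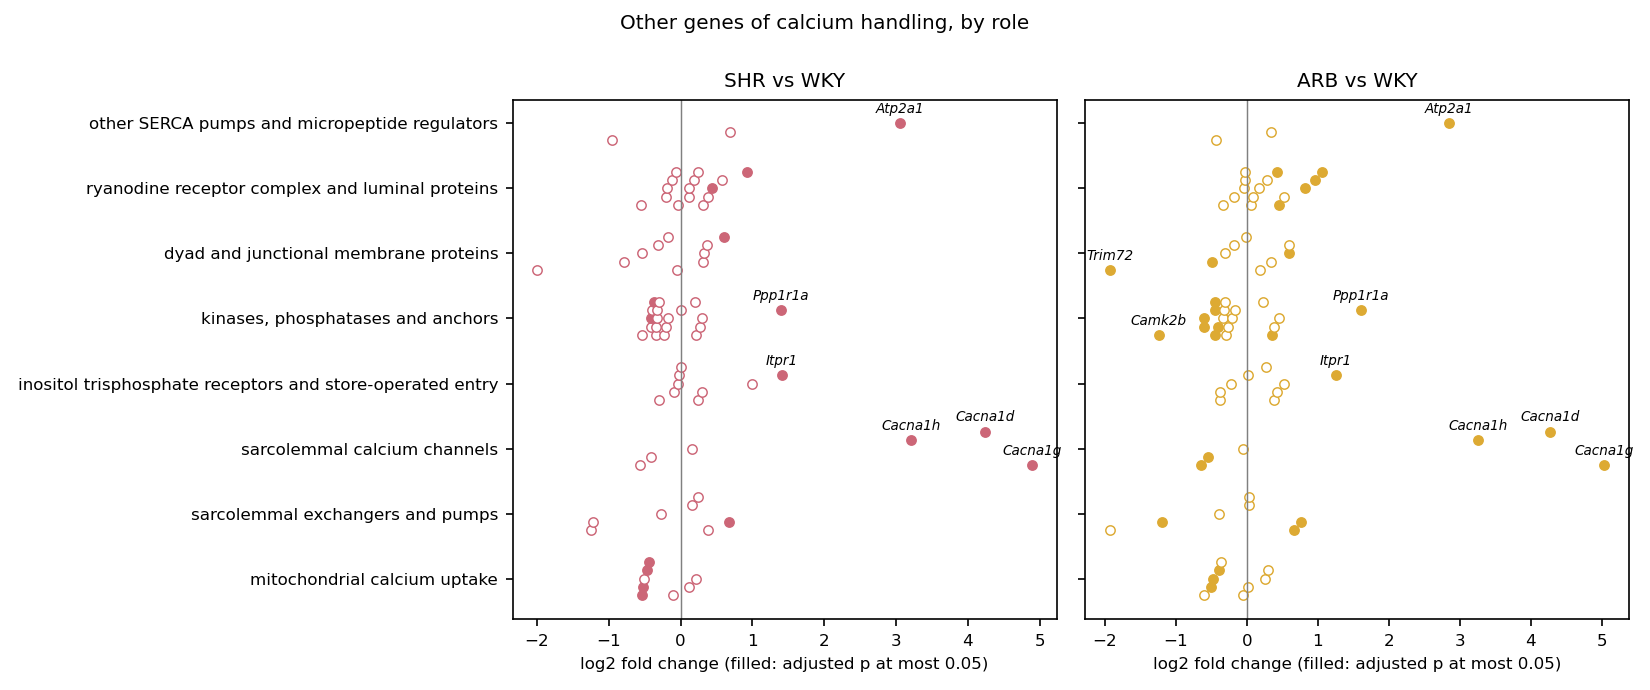
Log2 fold changes of the wider calcium list by role for SHR against WKY (left) and ARB against WKY (right), 1 point per tested gene, filled where the adjusted p from edgeR was at most 0.05, with names for called genes beyond 1.2. The channels Cacna1g, Cacna1d and Cacna1h lie between 3.22 and 5.03 in both panels, and the called mitochondrial genes lie below 0. In the ARB panel the channel genes Cacna1c and Cacnb2 were also called below 0.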

How the data were processed

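Left atrium RNA of 12 rats was sequenced (50-base reads), with 3 libraries per group. The authors aligned reads with HISAT2 2.0.4 and Bowtie2 2.2.5 (build Rnor_6.0 in the submitters' processing notes) and deposited RSEM output, in the form of expected counts (estimated, not normalized) for each gene. The annotation release is not given in the sources used here. Of 37246 genes listed, 21239 had counts, and 23.6% of the values were not whole. The 2 columns of the authors' own comparison (a fold change and its p-value) were not used. No measure of strand or of transcript length was used.

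Expected counts were rounded to whole numbers for all tests. Each pair of groups was compared on its own 6 libraries with edgeR 4.0.16 (R 4.3.3, filterByExpr, TMM scaling, quasi-likelihood test), with Benjamini-Hochberg adjustment of p-values over all genes tested. A gene passed at an adjusted p of at most 0.05. TMM shifted log2 differences against unscaled totals: the median over all genes was 0.01 with TMM and 0.15 without it for SHR against WKY, and 0.02 and 0.11 for ARB against WKY. Standard errors by edgeR were the absolute log2 fold change divided by the square root of the F statistic. For Sln, with few WKY counts, they can understate the error. Alternatives were DESeq2 1.42.0, DESeq2 size factors, no scaling, no filter, all 12 libraries in 1 fit, a replicate block, an added log2 threshold of 1, another prior count for the ratio, and leaving out each library. The fits were tested on simulated counts with the same dispersion for all genes and libraries. The spread between the real libraries was uneven, so that test cannot show how the fits behave on them. The Sln to Pln ratio was tested by exact permutation.

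The members, the lists and the tests were chosen with earlier results of these data known. All members are named. Of the wider list, at most 12 called genes were to be named for SHR against WKY and 5 for the other comparisons, by the size of the fold change. 1 called gene that this rule would name is not reported here. Cacna1c and Cacnb2 were named outside that rule, after their values were seen. The alternatives for the wider list were chosen after seeing the data. The nearest profiles were the 5 smallest root mean square differences. Nothing says whether libraries came from separate extractions of each animal, so p-values measure the spread between these libraries. Between libraries of a group, the chi-square per degree of freedom, which grows with spread beyond counting error, was 4.03 to 6.36 in WKY. It was 42.7 to 106 in SHR, 23.5 to 93.4 in ARB and 59.2 to 231 in ARNI. The WKY libraries were thus closer to each other than those of any other group, and every comparison with WKY rests on them. The cause was not tested. Replicate numbers were checked for pairing: for ARNI and SHR, same-numbered libraries deviated together (correlations 0.54, 0.49 and 0.19 over 13542 genes). SHR 2 and ARNI 2 are each also the library of their group with ventricular markers. No gene was called there with or without the block, while genes with an unadjusted p under 0.05 by edgeR went from 227 to 731. A count of 0 allows 0.190 to 0.267 CPM (3 counts, counting error only).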

Additional observations from a re-analysis of the deposited data

How the results depend on the processing

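Across 780 refits of single members, no value that passed changed sign, 58 values that did not pass did, 31 gained a call and 14 lost one. In the comparisons with WKY, the fit without SHR 2, ARB 3 or ARNI 2 entered under more than 1 setting. Its values and gained calls are therefore counted more than once. The count of members called between SHR and WKY was 2; it was 4 with no scaling beyond totals, 5 without SHR 2 (the library with both chambers' markers), and 1 with no filter, with all 12 libraries in 1 fit, with the replicate block and with the added threshold of 1, and it ran from 1 to 5 when single libraries were left out. Between ARB and WKY the count was 2; it was 5 with DESeq2, 6 without ARB 3, 1 with all 12 libraries in 1 fit and with the threshold, and 1 to 6 over left-out libraries. Between ARNI and WKY it was 0; it was 1 with DESeq2 and with all 12 libraries in 1 fit, 4 without ARNI 2, and 0 to 4 over left-out libraries. Fits over fewer libraries also test other sets of genes; beyond that the cause was not tested.

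Of the values that changed sign, 26 were between ARB and SHR, 10 between ARNI and SHR and 9 between ARNI and ARB, over all 10 members. Those of differences given in the report follow, with their ranges over left-out libraries. In SHR against WKY this was Ryr2 (-0.021 to 0.089), and in ARB against WKY Trdn (-0.14 to 0.40). In ARNI against WKY, Atp2a2 was -0.0030 with the replicate block and -0.11 without ARNI 2 (range -0.11 to 0.070), Trdn was 0.065 with no scaling and 0.26 without ARNI 2 (range -0.29 to 0.26), and Jph2 was 0.00046 with no scaling (range -0.28 to 0.12). Between ARB and SHR, Sln ran from -0.16 to 0.50, Pln was -0.00011 with no scaling (range -0.47 to 0.60) and Jph2 was 0.027 without SHR 2 and ARB 3 together (range -0.16 to 0.17). Between ARNI and SHR, Sln ran from -1.19 to 0.067, and Pln was -0.0016 without SHR 2 and ARNI 2 together (range -0.57 to 0.82). Between ARNI and ARB, Pln was -0.11 without ARB 3 and ARNI 2 together (range -0.60 to 0.73). The log2 Sln to Pln difference was -0.092 between ARB and SHR without SHR 2 and ARB 3 (range -0.66 to 0.67), and ran from -5.06 to 0.56 between ARNI and SHR and from -5.16 to 0.46 between ARNI and ARB.

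Correlations of same-numbered libraries were over 0.1 for 5 of 18 pairs: all 3 of ARNI and SHR, replicate 1 of ARB and SHR (0.44) and replicate 1 of ARNI and ARB (0.56). In no comparison but ARNI and SHR were all 3 pairs over 0.1. The replicate block there joins libraries by number, and SHR 2 and ARNI 2 also both held ventricular markers. In the ARB group that library is replicate 3, and replicates 2 and 3 of ARB and SHR correlated at -0.24 and -0.28. The replicate block changed the SHR to WKY count of all genes from 1698 higher and 1139 lower to 675 and 355. Scaling by totals alone gave 2560 higher and 867 lower, so that 74.7% of calls were higher against 59.9%. For ARB against WKY the share of calls that were higher moved from 55% to 65.8%. Over left-out libraries, the genes called ran from 292 to 2693 higher and 123 to 2617 lower for SHR against WKY, from 927 to 3294 and 704 to 3112 for ARB, and from 0 to 2001 and 0 to 1982 for ARNI, where the main counts were 17 and 20 and DESeq2 gave 633 and 339. With 3 libraries per group and Sln at 3 to 5 counts in WKY, its fold change is imprecise.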
